A study of Mus musculus with 9 samples.

Results

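TRBV14, TRBV17 and TRBV20 are 3 of the 21 TRBV genes that gave a productive T-cell receptor (TCR) beta chain in single cells of mouse lymph nodes. They are also known by the older names V-beta 13, V-beta 9 and V-beta 15. A member chain was a productive TRB contig whose first V call named 1 of these genes, and contigs with the same TRBV, TRBJ and junction nucleotides in a library were counted once. This gave 2467 member chains of 27448 distinct TRB chains in 8 libraries, of which 984 used TRBV14, 469 used TRBV17 and 1014 used TRBV20. Of 28490 productive TRB contigs 0 named more than 1 TRBV gene, and the V gene that Cell Ranger gave differed in 0 of 2540 member contigs.

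The cells were taken from 5xFAD mice, a transgenic line that carries familial Alzheimer's disease mutations under a neuronal promoter, and from WT mice. Lymph nodes of 3 places were used, with dCLN for the deep and sCLN for the superficial nodes of the neck and iLN for those of the groin. All mice were females of 10 to 11 months, no treatment before harvest is named in the labels, and 1 library is given per node and genotype. Tubes of cells tagged with hashtag antibodies were combined into composite samples, so a library may hold pooled animals. A further dCLN library has CD4 in its title and is labelled WT, and 1 library mixes the 3 nodes and both genotypes. A second CD4-titled library, labelled 5xFAD, was not used, because 6829 of its 6905 barcodes also occurred in the first, with 12709 pairs of barcode and junction in common. The CD4-titled library is therefore called by its title and not by its genotype label. Among the 8 libraries used, no pair shared more than 46 barcodes, and 0 of these carried the same junction. The labels give neither the number of animals behind a library nor the strain on which 5xFAD was kept, and transgene and strain background cannot be told apart here.

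The beta chain of a TCR is assembled in the thymus by joining a D segment to a J segment and then a V segment to the DJ joint, on the same chromosome. The V segment encodes the first and second loops of the binding site, CDR1 and CDR2, and the start of the third. The third, the junction or CDR3, is completed by trimming, added bases, D and J. Which TRBV genes a mouse can use depends on its strain: SJL mice are known to lack a block of TRBV genes that includes TRBV14 and TRBV17, and to keep TRBV20.

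The 3 genes lie in the order TRBV14, TRBV17, TRBV20 on the plus strand of chromosome 6 (GRCm38), at 41135145 to 41135616, 41163062 to 41163556 and 41188273 to 41188977. GENCODE gives each of them 2 exons, a leader exon and the V exon, which spans 41135320 to 41135616 in TRBV14, 41163262 to 41163556 in TRBV17 and 41188674 to 41188977 in TRBV20. Their V exons end within the junction, in the following bases, which set how a junction of each gene starts. The first 3 bases are the codon of the conserved cysteine, in capitals.
TRBV14: TGTgccagcagtttct
TRBV17: TGTgctagcagtagaga
TRBV20: TGTggtgctaggga

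TRBV14 and TRBV17 were alike at this end, and TRBV20 was shorter. Untrimmed, the first pair gives a junction that opens with the residues CASS and TRBV20 one that opens with CGAR. In the data, CASS opened 87.5% of TRBV14 and 90.6% of TRBV17 junctions, and CGAR opened 69.2% of TRBV20 junctions. A glycine followed the cysteine in 1013 of 1014 TRBV20 chains.

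The members were middle to low in use, and neither genotype nor node changed the use of any of them past the test. TRBV14 made up 4.18%, 3.78% and 4.30% of distinct TRB chains in 5xFAD dCLN, sCLN and iLN, against 3.44%, 4.85% and 4.03% in WT dCLN, sCLN and iLN. The genotypes overlapped, and the sign of the difference varied over nodes. TRBV14 averaged 4.09% ± 0.28 in 5xFAD nodes and 4.11% ± 0.71 in WT nodes (SD, n = 3 nodes each), a fitted log2 change of 0.003 (SE 0.19, adjusted p = 0.986, edgeR quasi-likelihood test with node type in the model).

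TRBV17 made up 1.63%, 1.89% and 2.01% in 5xFAD dCLN, sCLN and iLN, against 1.59%, 2.35% and 2.28% in WT dCLN, sCLN and iLN. It was the rarest of the members in every library. Its means were 1.84% ± 0.19 in 5xFAD nodes and 2.07% ± 0.42 in WT nodes (SD, n = 3 each), a fitted log2 change of -0.16 (SE 0.24, adjusted p = 0.836, edgeR).

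TRBV20 made up 3.52%, 3.39% and 2.70% in 5xFAD dCLN, sCLN and iLN, against 4.00%, 4.48% and 3.46% in WT dCLN, sCLN and iLN. It was lower in 5xFAD in 3 of 3 nodes, though the ranges of the genotypes met between 3.46% and 3.52%. Its means were 3.20% ± 0.44 in 5xFAD nodes and 3.98% ± 0.51 in WT nodes (SD, n = 3 each), with a fitted log2 change of -0.31 (SE 0.17) that did not pass the test (adjusted p = 0.562, edgeR).

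Of the 33 TRBV and TRBJ genes tested for genotype 0 were called (0%), with 3 at an unadjusted p under 0.05 and 1 call by DESeq2, for TRBV26. Within single nodes, the 95% counting interval of the 5xFAD over WT ratio included 0 on the log2 scale for each member in each node. Over all 21 TRBV genes the interval left out 0 for 0% of genes in dCLN, 33.3% in sCLN and 38.1% in iLN. The nearest member value was that of TRBV20 in sCLN, a log2 ratio of -0.40 (interval -0.81 to 0.001). Among the 9 TRBV genes on the list that SJL mice lack, which include TRBV14 and TRBV17, 0 were called, 1 had a positive fitted change and 8 a negative one, with a median log2 change of -0.11. Among the 12 measured genes on the list that SJL mice keep, which include TRBV20, 0 were called, and the median log2 change was 0.09, beside -0.10 over all 21 TRBV genes.

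The node contrasts called 0 of 33 genes each (0%), with 1, 2 and 0 genes at an unadjusted p under 0.05 by edgeR and 0 calls by DESeq2 in the order dCLN over sCLN, dCLN over iLN, sCLN over iLN. The fitted log2 changes of the members lay between -0.40 (TRBV17 in dCLN against iLN, SE 0.29) and 0.35 (TRBV20 in sCLN against iLN, SE 0.21), with adjusted p between 0.872 and 0.994. Between single libraries, 1 of 18 node ratios of the members had a counting interval that left out 0. This was TRBV14 in WT dCLN over WT sCLN, with a log2 ratio of -0.49 (interval -0.95 to -0.04). In that pair of libraries the interval left out 0 for 14.3% of TRBV genes. For dCLN over iLN and sCLN over iLN in WT it did so for 14.3% and 19%, and for the same 3 pairs in 5xFAD, in the order above, for 33.3%, 33.3% and 52.4%, the members not among them.

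**Figure D1:**
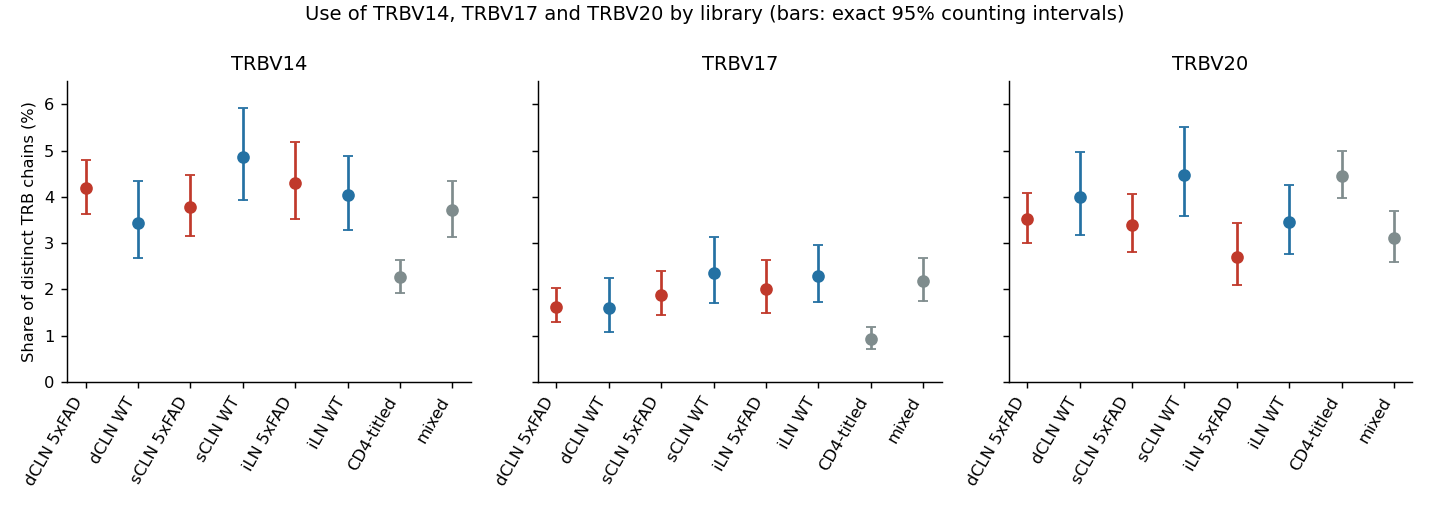
Share of distinct TRB chains (%, vertical axis) that used TRBV14, TRBV17 and TRBV20 in each of 8 libraries, with exact 95% counting intervals (red 5xFAD nodes, blue WT nodes, grey CD4-titled and mixed). The intervals of 5xFAD and WT overlap in each node, while TRBV14 and TRBV17 are at 2.26% and 0.927% in the CD4-titled library, below all other libraries.

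TRBV14 and TRBV17 took lower shares of the CD4-titled library than of either dCLN library, and TRBV20 took a higher share than in 5xFAD dCLN. TRBV14 made up 2.26% of its chains (exact 95% interval 1.92% to 2.64%), a log2 ratio of -0.89 over 5xFAD dCLN (interval -1.19 to -0.58) and -0.61 over WT dCLN (interval -1.03 to -0.20). TRBV17 made up 0.927% (exact interval 0.712% to 1.19%), a log2 ratio of -0.81 over 5xFAD dCLN and -0.79 over WT dCLN, with both intervals below 0. TRBV20 made up 4.46% (exact interval 3.97% to 4.98%), a log2 ratio of 0.34 over 5xFAD dCLN (interval 0.06 to 0.61) and 0.15 over WT dCLN (interval -0.21 to 0.51).

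Such departures were common in this library: the interval left out 0 for 61.9% of TRBV genes against 5xFAD dCLN and for 47.6% against WT dCLN. There was 1 such library, so these values compare libraries and have no replicate check. The mixed library held 3.71% TRBV14, 2.18% TRBV17 and 3.11% TRBV20, and its ratio to the sum of the 6 node libraries had an interval that included 0 for each of them, beside 47.6% of TRBV genes whose interval left out 0. In order of use among 21 TRBV genes, TRBV14 ranked 9 to 14, TRBV17 ranked 15 to 18 and TRBV20 ranked 10 to 16 over the 8 libraries.

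Over the 8 libraries, the use of TRBV14 was most like that of TRBV29 (Pearson r of log2 share 0.92) and TRBV17 (r = 0.90), that of TRBV17 most like that of TRBV14 and of TRBV29 (r = 0.89), and that of TRBV20 most like that of TRBV13-2 (r = 0.59) and TRBV5 (r = 0.55), among the 19 genes compared. The points share the totals of the same libraries. Without the CD4-titled and mixed libraries these values were 0.45 for TRBV14 with TRBV29, 0.67 for TRBV14 with TRBV17, 0.42 for TRBV17 with TRBV29, and 0.46 for TRBV20 with either partner. The CD4-titled library was not left out alone.

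TRBV17 contigs carried more UMIs than those of the other members. The median UMI count of a TRBV17 contig was 12 to 18.5 over the 8 libraries, against a median of 7 to 10 over all TRB contigs of the same libraries. It lay above its library's median in 8 of 8 libraries and was the highest of all TRBV genes with at least 10 contigs in 6 of 8. TRBV14 contigs had a median of 6 to 10 UMIs and TRBV20 contigs of 6 to 9, above their library's median in 0 of 8 libraries each. This comparison was added after the data were seen and was not tested.

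The V regions of TRBV14 and TRBV17 came in 1 form, and those of TRBV20 in a pair of forms. All 984 TRBV14 and all 469 TRBV17 chains were called allele 01, and in each of them the V region from its start to the junction was found unchanged in the GRCm38 transcript of the gene. V identity, the deposited fraction of aligned V bases that match the germline allele, was below 1 in 24 TRBV14 and 38 TRBV17 chains. In each of these chains the differing bases lay inside the junction, where the aligner extends the V segment into trimmed and added bases. V identity was at its lowest 0.993 in both genes.

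TRBV20 had V identity below 1 in 113 chains, with differing bases inside the junction in 88 and before it in 25. The chains fell into 972 with the bases of GRCm38 at IMGT positions 114 and 145 of the V region, and 42 with T114C and A145G together. No chain had 1 of these changes without the other. T114C leaves the amino acid as it is, and A145G gives T49A, a change of threonine to alanine at IMGT codon 49. The stretch below, IMGT positions 106 to 153, shows the forms with the differing bases in capitals.
TRBV20 reference form: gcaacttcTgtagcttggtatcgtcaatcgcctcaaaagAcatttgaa
TRBV20 second form: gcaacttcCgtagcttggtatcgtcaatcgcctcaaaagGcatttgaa

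The deposited allele call did not follow these bases. Of the 42 chains with the second form, 17 were called allele 02 and 25 were called allele 01. Those called 02 had V alignments that ended at IMGT positions 315 to 317, and those called 01 had alignments that ended at 321 to 323. The call thus went with how much of the V end was left in the junction, and a count of allele calls alone would have missed 25 of 42 chains.

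The second form made up 14 of 164, 12 of 115 and 5 of 66 TRBV20 chains in 5xFAD dCLN, sCLN and iLN (8.54%, 10.4% and 7.58%), against 4 of 78, 3 of 84 and 4 of 85 in WT dCLN, sCLN and iLN (5.13%, 3.57% and 4.71%). Every 5xFAD library lay above every WT library. The means were 8.85% ± 1.45 in 5xFAD nodes and 4.47% ± 0.81 in WT nodes (SD, n = 3 each), a difference of 4.38 percentage points. An exact two-sided sign-flip permutation test over the 3 nodes gave p = 0.25, the smallest it can give. The exact 95% intervals of the genotypes overlapped in each node, for example 5.51% to 17.5% in 5xFAD sCLN and 0.743% to 10.1% in WT sCLN.

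The second form was found in 0 of 298 TRBV20 chains of the CD4-titled library, which allows a share of up to 1.01%, and in 0 of 124 of the mixed library, which allows up to 2.42%. The mixed library is labelled as holding both genotypes. These 2 libraries were called against another allele set, but the forms were read from the contig bases and not from the calls.

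TRBV20 was 1 of 6 TRBV genes in which a share of V regions was not that of GRCm38. Outside the members the changed bases were not read, so whether they make 1 second form per gene was not tested. In the 6 node libraries the V region differed from GRCm38 in over 2% of chains for 6 of the 12 genes on the list that SJL mice keep, and for 0 of the 9 genes on the list they lack, where the highest share was 0.313%. TRBV4, TRBV5, TRBV19, TRBV23 and TRBV26 had shares of 17.2%, 16.4%, 35.4%, 7.86% and 22.5%, and TRBV20, with 43 chains that include 1 with another base change (G151A), had 7.26%. TRBV14 and TRBV17 had 0 of 685 and 0 of 320, which allows up to 0.438% and 0.938%.

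Over TRBV4, TRBV5, TRBV19 and TRBV26 together, the V region differed from GRCm38 in 21.9%, 20.8% and 18.0% of chains in 5xFAD dCLN, sCLN and iLN, against 19.7%, 17.7% and 18.3% in WT dCLN, sCLN and iLN. These genotype ranges overlapped when the 4 genes were pooled. TRBV23, with 11 of 140 chains not of GRCm38, was left out of this pool and of those below. In TRBV5 alone they did not, with 17.3%, 20.4% and 15.1% in 5xFAD dCLN, sCLN and iLN against 14.3%, 13.5% and 14.1% in WT dCLN, sCLN and iLN, so the order seen in TRBV20 was not particular to it. In TRBV4, TRBV19 and TRBV26 alone the ranges overlapped. In the CD4-titled and mixed libraries the count was 1 of 1734 and 0 of 888. Which strain the TRBV20 second form and the other non-reference V regions belong to was not tested.

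**Figure D2:**
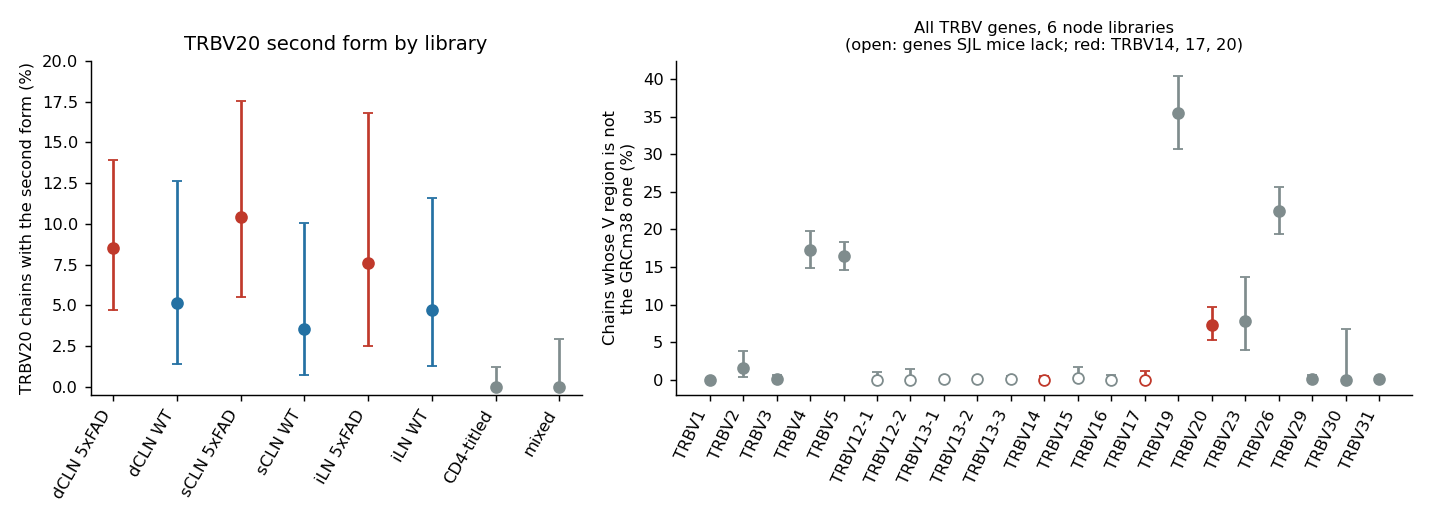
Left, share of TRBV20 chains with the second form (%, vertical axis) by library with exact 95% counting intervals (red 5xFAD, blue WT, grey CD4-titled and mixed): 7.58% to 10.4% in 5xFAD nodes, 3.57% to 5.13% in WT nodes and 0 in the grey libraries. Right, share of chains of each TRBV gene whose V region is not that of GRCm38 (%) over the 6 node libraries, with exact 95% intervals: open symbols, the genes SJL mice lack, lie at 0 to 0.313%, and TRBV20 lies at 7.26%.

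The deposited allele calls of TRBJ1-5, the only TRBJ gene given here, split in a similar way. TRBJ1-5 was called allele 03 in 58 of 444 chains of the 6 node libraries. All 58 used a TRBV gene from the list that SJL mice keep (58 of 275 TRBJ1-5 chains), and 0 of 169 used a gene from the list they lack, TRBV14 (0 of 10) and TRBV17 (0 of 3) included. Of the TRBV20 chains joined to TRBJ1-5, both with the second form had allele 03 (2 of 2), and 0 of 19 with the reference form did. Pooled over TRBV4, TRBV5, TRBV19, TRBV20 and TRBV26, allele 03 stood in 22 of 22 non-reference chains and 0 of 84 reference chains. This comparison was chosen after the data were seen. Since V and J are joined on 1 chromosome, the V form and the J allele of a chain come from the same chromosome.

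Junctions with the second form averaged 13.3 amino acids, against 13.0 with the reference form in the same 6 libraries. TRBJ2 genes made up 85.7% of the 42 second-form chains and 63.5% of the 550 others. TRBJ1-2 was joined to 0 of 42 and to 50 of 550 (9.09%), and 0 of 42 allows a share of up to 7.14%. In TRBV4, TRBV5, TRBV19 and TRBV26 together, TRBJ1-2 made up 5.96% of 721 non-reference chains and 5.00% of 2901 reference chains. A lack of TRBJ1-2 was thus not seen there. These values were chosen after they were seen and have no test.

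TRBV20 junctions were the shortest of the members. Their mean length was 13.0 ± 0.13 amino acids over the 8 libraries (SD, n = 8), against 14.0 ± 0.05 for all other TRBV chains, lower in 8 of 8 libraries by a mean of 0.91 ± 0.12. TRBV14 junctions averaged 13.7 ± 0.11 against 13.9 ± 0.05 for the other chains, lower in 8 of 8 by 0.21 ± 0.09. TRBV17 junctions averaged 14.1 ± 0.18 against 13.9 ± 0.05, longer in 6 of 8. The exact two-sided sign-flip permutation test over libraries gave p = 0.0078, the smallest it can give, for TRBV20 and for TRBV14, and p = 0.094 for TRBV17.

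Adjusted over 18 tests (6 measures in 3 members) the first pair had p = 0.070, and 0 of 18 measures passed (0%), with 9 at an unadjusted exact p under 0.05. With contigs of at least 2 UMIs, or without barcodes that held extra chains, TRBV20 and TRBV14 junction length and TRBV17 TRBJ2 share passed (adjusted exact p = 0.047 each). With barcodes counted in place of distinct chains, both lengths and the added bases of TRBV14 passed at the same value. Both lengths already had the smallest possible exact p in the main count. Their adjusted p fell in these alternatives because a further measure reached that smallest value, so the passes add nothing about the lengths.

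The V alignments of TRBV14 lacked the most V bases and those of TRBV20 the fewest. The aligned V segment lacked a mean of 3.20 bases in TRBV14 (of the germline end printed above), 2.58 in TRBV17 and 1.94 in TRBV20. In the same order, 4.88%, 23.0% and 37.1% of chains were aligned up to the last V base. The mean in single libraries was 3.00 to 3.36 bases in TRBV14, 2.37 to 2.94 in TRBV17 and 1.60 to 2.15 in TRBV20, so the ranges of the 3 genes did not meet. Bases of D, J or added bases that happen to match the V germline count as untrimmed. How often this happened may differ between the V ends and was not tested, so the order is one of alignments and not of trimming alone.

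Added bases on both sides of D numbered 3.76 ± 0.24 in TRBV14 chains with a D call, against 3.42 ± 0.10 in other chains (SD over 8 libraries, exact p = 0.031, adjusted p = 0.080). They numbered 3.34 ± 0.16 in TRBV20 chains against 3.44 ± 0.10 (lower in 7 of 8 libraries, exact p = 0.023, adjusted p = 0.080), and 3.43 ± 0.10 in TRBV17 chains against 3.43 ± 0.10 (exact p = 0.95). No D segment was called in 24.9% of TRBV14, 26.4% of TRBV17 and 32.0% of TRBV20 chains, against 25.2% of chains of other genes.

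**Figure D3:**
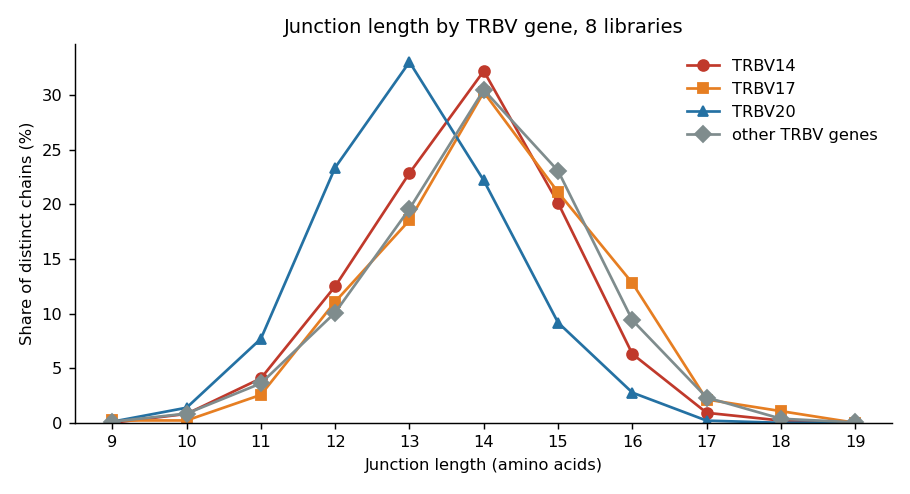
Share of distinct chains (%, vertical axis) by junction length in amino acids (horizontal axis, 9 to 19) for TRBV14, TRBV17, TRBV20 and all other TRBV genes over 8 libraries. The TRBV20 curve lies to the left, with a median of 13 against 14 for TRBV14 and TRBV17.

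In TRBJ choice, 6 of 34 pairs of member and TRBJ gene passed the test (17.6%; edgeR within library blocks, member chains against all other TRBV chains of the same library). Only TRBJ genes with at least 10 member chains were tested. In TRBV17 this left out TRBJ1-5 (1.14% against 2.78% of other chains) and TRBJ1-6 (1.46% against 3.29%), both low there. TRBJ1-2 was the gene that moved in all 3 members, down in TRBV14 and TRBV17 and up in TRBV20. TRBJ2-5 rose in TRBV14, TRBJ2-2 rose in TRBV17 and TRBJ1-6 fell in TRBV20. The other TRBV genes were not fitted in this way, so 17.6% cannot be read as a trait of the members. TRBJ choice varied widely over all 21 TRBV genes, with mean TRBJ1-2 shares from 2.64% in TRBV17 to 15.2% in TRBV12-1. The germline TRBJ1-2 and TRBJ2-2 segments (chromosome 6, 41534001 to 41534048 and 41542957 to 41543007) open with the same bases, in capitals, and differ from the next base on.
TRBJ1-2: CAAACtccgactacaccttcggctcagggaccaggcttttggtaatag
TRBJ2-2: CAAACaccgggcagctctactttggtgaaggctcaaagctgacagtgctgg

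TRBJ1-2 was joined to 1.54%, 3.12% and 1.90% of TRBV14 chains in 5xFAD dCLN, sCLN and iLN, to 5.97%, 2.20% and 0% in WT dCLN, sCLN and iLN, and to 4.64% and 2.03% in the CD4-titled and mixed libraries. The mean was 2.67% ± 1.87 of TRBV14 chains and 5.77% ± 0.96 of other TRBV chains (SD, n = 8 libraries), lower in 7 of 8. The fitted log2 change was -1.18 (SE 0.32, adjusted p = 0.017, edgeR), from 25 TRBV14 chains.

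In TRBV17 chains TRBJ1-2 made up 0% to 6.45% over the 8 libraries, with a mean of 2.64% ± 2.09 against 5.70% ± 0.90 of other chains, lower in 7 of 8. The fitted log2 change was also -1.18 (SE 0.31, adjusted p = 0.017, edgeR), from 12 TRBV17 chains. The exception in either gene was WT dCLN, which held the fewest chains of both, 67 of TRBV14 and 31 of TRBV17. Among 21 TRBV genes, TRBV17 and TRBV14 had the lowest mean TRBJ1-2 shares, but TRBV15 (2.74%), TRBV5 (3.08%) and TRBV19 (3.10%) came close behind.

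In TRBV20 chains TRBJ1-2 made up 5.49%, 8.70% and 10.6% in 5xFAD dCLN, sCLN and iLN, 10.3%, 7.14% and 11.8% in WT dCLN, sCLN and iLN, and 10.7% and 8.06% in the CD4-titled and mixed libraries. It was above the other TRBV chains of the same library in 8 of 8, with a mean of 9.09% ± 2.12 against 5.52% ± 0.90. The fitted log2 change was 0.70 (SE 0.17, adjusted p = 0.0031, edgeR), and 2 of the 21 TRBV genes had a higher mean share.

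TRBJ2-5 made up 16.6% ± 3.21 of TRBV14 chains and 13.4% ± 0.79 of other chains, higher in 7 of 8 libraries (log2 change 0.35, SE 0.10, adjusted p = 0.023, edgeR). A higher mean share was found in 5 of the 21 TRBV genes, up to 22.8% in TRBV12-2. The highest share in TRBV14 was 22.6%, in 5xFAD dCLN, and without that library the call was lost (adjusted p = 0.259), as it was without WT iLN (0.064) and without the CD4-titled library (0.095). TRBJ2-2 made up 9.90% ± 3.09 of TRBV17 chains and 5.66% ± 0.40 of other chains, higher in 8 of 8 libraries (log2 change 0.73, SE 0.21, adjusted p = 0.018, edgeR), the highest mean share of 21 TRBV genes. This call was lost without WT sCLN (adjusted p = 0.096) and without WT iLN (0.067). TRBJ1-6 made up 2.04% ± 1.36 of TRBV20 chains and 3.30% ± 0.49 of other chains, lower in 7 of 8 (log2 change -0.78, SE 0.29, adjusted p = 0.048, edgeR), from 20 chains. A low TRBJ1-6 share was not particular to TRBV20. It was 1.46% ± 1.36 in TRBV17 against 3.29% ± 0.43 in other chains, lower in 8 of 8, from 8 chains and not tested. In TRBV14 it was 2.15% ± 1.48 against 3.30% ± 0.44, lower in 6 of 8.

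Some of the largest changes with at least 20 member chains did not pass. They were TRBJ1-6 in TRBV14 (log2 change -0.66, adjusted p = 0.317) and TRBJ1-3 in TRBV20 (0.38, adjusted p = 0.174). In TRBV17 they were TRBJ2-1 (0.41, adjusted p = 0.126) and TRBJ1-4 (0.36, adjusted p = 0.342, edgeR). TRBJ1-5 in TRBV14, with 17 chains, was at -0.67 and lower in 8 of 8 libraries (adjusted p = 0.284, edgeR). TRBJ2-5 in TRBV20 was at -0.33, lower in 8 of 8, and came nearest to passing (adjusted p = 0.078, edgeR). In the 6 node libraries alone, TRBJ1-2 in TRBV17 had too few chains to be tested and 0 of the other 5 calls passed, where the adjusted p of TRBJ1-2 in TRBV14 and TRBV20 and of TRBJ2-2 in TRBV17 was 0.063 each, and 3 passed without the WT iLN library. Among the fits that left out a library, the TRBJ1-6 call was kept only without WT dCLN, and its adjusted p was 0.067 to 0.196 in the others. It was also lost with DESeq2 (adjusted p = 0.134), TMM scaling (0.063), at least 2 UMIs (0.062) and no minimum of chains (0.051).

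**Figure D4:**
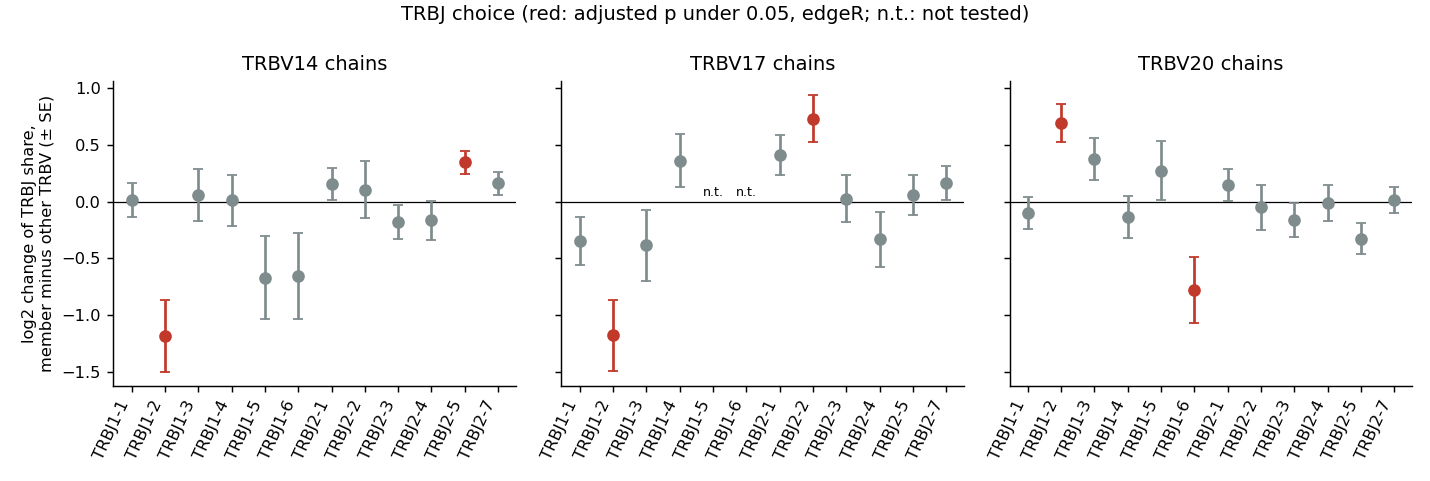
Fitted log2 change (vertical axis, ± SE) of the share of each TRBJ gene (horizontal axis) in TRBV14, TRBV17 and TRBV20 chains against all other TRBV chains of the same 8 libraries, with red for adjusted p under 0.05. TRBJ1-2 is at -1.18 in TRBV14 and TRBV17 and at 0.70 in TRBV20, while TRBJ1-5 and TRBJ1-6 had too few TRBV17 chains to be tested.

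The TRBJ2 group as a whole made up 73.6% ± 6.32 of TRBV17 chains against 65.6% ± 2.95 of other chains, higher in 7 of 8 libraries (exact sign-flip p = 0.016, adjusted p = 0.080). It made up 69.8% ± 6.76 of TRBV14 chains against 65.6% ± 2.88 (exact p = 0.047, adjusted p = 0.094) and 63.0% ± 4.49 of TRBV20 chains against 65.8% ± 2.93 (lower in 7 of 8, exact p = 0.023, adjusted p = 0.080). Per TRBJ gene, 1 of 4 tested TRBJ1 genes fell and 1 of 6 TRBJ2 genes rose in TRBV17, 1 of 6 TRBJ1 genes fell and 1 of 6 TRBJ2 genes rose in TRBV14, and 1 TRBJ1 gene rose and 1 fell in TRBV20, where 0 of 6 TRBJ2 genes passed.

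Between genotypes, 5 of 18 measures of the members had 1 sign in all 3 nodes (27.8%). The exact sign-flip test over 3 nodes cannot go below p = 0.25, which is also the chance of 1 sign where signs are random. The 5 measures are therefore given as a description only. TRBJ2 share was higher in 5xFAD for TRBV17 (79.1% ± 2.18 in 5xFAD nodes and 72.1% ± 6.63 in WT nodes) and for TRBV20 (67.9% ± 0.26 in 5xFAD nodes and 61.1% ± 2.83 in WT nodes). Other TRBV chains averaged 68.4% ± 1.57 in 5xFAD nodes and 65.8% ± 1.86 in WT nodes beside TRBV20, higher in 2 of 3 nodes. Added bases were higher in 5xFAD for TRBV20 (3.45 ± 0.12 in 5xFAD nodes and 3.30 ± 0.12 in WT nodes), as they were in other chains in 3 of 3 nodes.

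Chains found in more than 1 barcode were rarer in 5xFAD for TRBV14 (1.69% ± 0.81 in 5xFAD nodes and 6.35% ± 4.22 in WT nodes) and for TRBV20 (1.89% ± 1.65 in 5xFAD nodes and 4.94% ± 2.67 in WT nodes, SD, n = 3 each). Other TRBV chains moved in the same direction in 3 of 3 nodes, with 2.59% ± 1.04 in 5xFAD nodes and 5.73% ± 2.66 in WT nodes beside TRBV20. Of the 2467 member chains 71 were in at least 2 barcodes, beside 902 of all 27448 TRB chains, and no member chain was in more than 3. The 2 chains with 3 barcodes were both from WT dCLN and both used TRBJ2-1; the bases between the V and J segments are in capitals.
TRBV14 with TRBJ2-1: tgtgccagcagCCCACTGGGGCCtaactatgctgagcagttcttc
TRBV20 with TRBJ2-1: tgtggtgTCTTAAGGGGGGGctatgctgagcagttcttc

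Most junctions were found in 1 library. At the level of amino acids with the same TRBV and TRBJ gene, 14 of 968 TRBV14 junctions (1.45%), 3 of 464 TRBV17 junctions (0.647%) and 25 of 983 TRBV20 junctions (2.54%) occurred in at least 2 libraries, and only TRBV20 junctions occurred in 3. At the level of nucleotides, 2 TRBV14, 1 TRBV17 and 9 TRBV20 chains were in 2 libraries. Among the 6 node libraries, 0 of them were in 1 library of each genotype. Of those of TRBV14 and TRBV20, 1 and 8 involved the CD4-titled or the mixed library. Sharing was not counted over all TRBV genes, so these counts cannot be read as traits of the members.

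The TRBV20 junctions in 3 libraries show how the same protein loop was made from different bases. A junction joined to TRBJ2-4 was encoded differently in each library, with the capitals marking the bases between the V and J segments.
5xFAD dCLN: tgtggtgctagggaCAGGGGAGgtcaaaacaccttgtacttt
5xFAD sCLN: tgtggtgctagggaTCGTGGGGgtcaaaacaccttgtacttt
WT iLN: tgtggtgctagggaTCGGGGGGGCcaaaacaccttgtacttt

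Another, joined to TRBJ1-3, had a V segment aligned up to the arginine codon in 2 of 3 libraries, and one that ended before it in the third. In 5xFAD dCLN the aligned arginine codon was cgg, which differs from the agg of the germline end.
5xFAD dCLN: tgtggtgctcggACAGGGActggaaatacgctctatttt
WT iLN: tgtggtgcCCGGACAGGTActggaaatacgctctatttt
CD4-titled: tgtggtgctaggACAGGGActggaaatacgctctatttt

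The third such junction, joined to TRBJ2-3, was made of 1 nucleotide sequence in WT iLN and the CD4-titled library and of another in the mixed library. Among TRBV14 junctions, the 3 named by the rule for shared junctions were each in 2 libraries and each made of 2 nucleotide sequences. Among TRBV17 junctions, 1 of the 3 had the same bases in 5xFAD dCLN and 5xFAD iLN, in 4 barcodes.
TRBV17 with TRBJ1-4: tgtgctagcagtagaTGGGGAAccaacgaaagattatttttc

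Alpha partners were read in barcodes with 1 TRB chain and 1 or 2 TRA chains. The share of chains with any TRA partner was instead counted over all barcodes, those with extra chains included. It was 69.3% ± 11.4 for TRBV14, 68.7% ± 13.1 for TRBV17 and 70.0% ± 8.40 for TRBV20 chains. For chains of the genes other than TRBV14 it was 69.3% ± 10.5 (SD, n = 8 libraries). Of 106 pairs of member and TRAV subgroup or TRAJ gene, 1 passed the test (0.943%): TRAV14 fell among TRBV14 clonotypes. Only partners with at least 10 member clonotypes were tested, which for TRBV17 left 20. This minimum looked at member clonotypes alone, so in a rare gene it favoured partners that were high there. All 11 tested TRAJ genes had a positive fitted change in TRBV17, so the direction of these changes cannot be read.

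TRAV14 made up 2.80%, 5.75% and 0% of TRBV14 clonotypes in 5xFAD dCLN, sCLN and iLN, 4.65%, 5.88% and 9.23% in WT dCLN, sCLN and iLN, and 2.88% and 6.84% in the CD4-titled and mixed libraries. In 8 of 8 libraries this was below the share among other clonotypes, which ranged from 6.78% to 11.6%. The means were 4.75% ± 2.84 and 9.39% ± 1.55 (SD, n = 8), a fitted log2 change of -1.003 (SE 0.25, adjusted p = 0.0094, edgeR), from 30 of 624 TRBV14 clonotypes. The call was lost with DESeq2 (adjusted p = 0.118), without 5xFAD dCLN (0.11) and without the CD4-titled library (0.277).

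TRAV12 made up 13.0% ± 2.55 of TRBV20 clonotypes and 8.34% ± 2.14 of other clonotypes, higher in 8 of 8 libraries, but the fitted log2 change of 0.62 (SE 0.17) did not pass (adjusted p = 0.064, edgeR). It passed without the mixed library (adjusted p = 0.021). Among partners with at least 20 member clonotypes, the other largest changes did not pass either. With TRBV14 these were TRAJ21 (0.87, adjusted p = 0.367) and TRAJ34 (0.61, adjusted p = 0.676). With TRBV17 they were TRAV12 (0.35), TRAV14 (-0.28) and TRAV4 (0.21, adjusted p = 0.887 each). With TRBV20 they were TRAJ49 (0.54, adjusted p = 0.886) and TRAV13 (0.35, adjusted p = 0.518, edgeR). Some partners with fewer clonotypes had larger changes that did not pass. These included TRAJ45 with TRBV17 (1.11, 16 clonotypes, adjusted p = 0.570), the largest for that gene. Others were TRAJ44 with TRBV20 (0.95, 15 clonotypes) and TRAJ49 with TRBV14 (-0.78, 13 clonotypes, edgeR).

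TRAJ genes numbered 40 or above, which lie on the V side of the TRAJ cluster, made up 29.2% ± 4.81 of TRBV14 clonotypes against 33.4% ± 2.48 of others (exact sign-flip p = 0.031, adjusted p = 0.080). They made up 38.6% ± 10.0 of TRBV17 clonotypes against 33.2% ± 2.38 (exact p = 0.13) and 30.7% ± 5.41 of TRBV20 clonotypes against 33.4% ± 2.66 (exact p = 0.31).

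**Figure D5:**
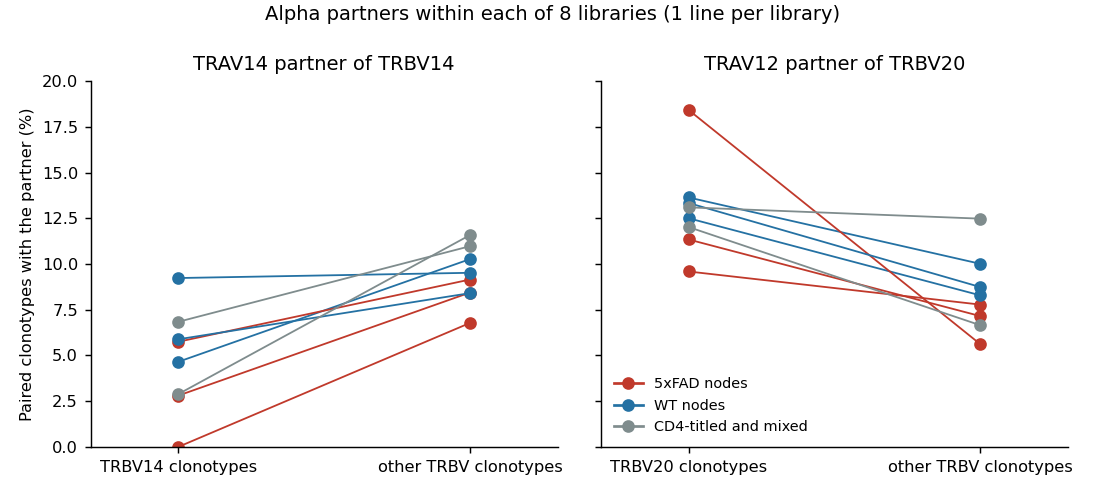
Share of paired clonotypes (%, vertical axis) with TRAV14 among TRBV14 and other clonotypes (left) and with TRAV12 among TRBV20 and other clonotypes (right), 1 line per library. All 8 lines rise toward the other clonotypes on the left and all 8 fall on the right, where the mixed library has the flattest line.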

How the data were processed

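Of 9 deposited contig tables, 8 were analysed. The libraries were made with 10x Genomics reagents from hashtagged cells, per the labels. The submitters' processing notes list Cell Ranger (6.0.1), Seurat (4.1.0) and mm10, without saying what each was used for; mm10 is the assembly GRCm38. Deposited UMI and read counts per contig were not normalised, judging by their whole numbers. The deposited V identity is a fraction. Junction and added-base lengths are in bases, per the file headers. The CD4-titled and mixed tables name alleles of another germline set than the 6 node tables.

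Distinct TRB chains (1875 to 6686 per library) were counted per TRBV and TRBJ gene. Productive contigs without a junction (3 of 28490) were dropped. A paired clonotype needed 1 TRB and 1 or 2 TRA contigs in a barcode, and no doublet caller was run. Gene use was tested with edgeR 4.0.16 (R 4.3.3), with node type and genotype in the model, chain totals as library sizes and at least 10 chains per gene. Member chains were set against other TRBV chains of the same library with library as a block. P-values were Benjamini-Hochberg adjusted over all features of a contrast, or over all features and the 3 members, with a threshold of 0.05. Single measures used exact sign-flip tests in Python 3.11.15. Nothing in the labels says that libraries came from separate animals, so p-values measure the spread between these libraries. Intervals (95%, exact Clopper-Pearson for shares, a pseudocount of 0.5 for log2 ratios) and limits for a count of 0 (3 counts) cover counting error only. An SE is the fitted change over the t value that gives its p. V regions were matched to GENCODE M21 transcripts of GRCm38. Scripts of fitted tests were tested on simulated data. Alternatives changed the counted unit, filters, scaling and tool (DESeq2 1.42.0) and left out libraries.

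The text names every feature that passed, the 3 largest fitted changes per member with at least 20 member chains, and the 3 junctions per member found in most libraries. The members, lists and tests were chosen with earlier results of these data known. The UMI comparison, the TRBV20 forms and the TRBJ1-5 alleles were added after the data were seen.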

Additional observations from a re-analysis of the deposited data

How the results depend on the processing

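Each node and genotype gave 1 library, so a replicate number marks no pairs. Node type or library was a term of the fits, and the sign-flip tests used differences within a node or within a library. Of 834 single values under alternatives, 764 counted as unchanged, 25 lost a call, 10 gained one and 35 changed sign. Of 126 summary values, 16 moved. For fitted changes and member measures against other chains, unchanged meant the same direction and side of the threshold. For genotype differences in the measures it meant a shift below the SD over nodes. For ratios of the CD4-titled and mixed libraries it meant a value inside the main interval. A change of sign could thus count as unchanged in these last groups. The causes were not tested. The genotype count of 0 became 1 with DESeq2 and 0 to 1 with a library left out (TRBV2, without either sCLN library), and the sCLN over iLN count 0 to 4 (4 without WT sCLN). The TRBJ count of 6 became 0 in the 6 node libraries and 3 to 6 with a library left out. The partner count of 1 became 0 in the 6 node libraries, 0 with DESeq2 and 0 to 2 with a library left out. The measures count of 0 became 3 with at least 2 UMIs, 3 without extra chains and 3 with barcodes, each time as a further measure reached the smallest exact p. The 5 genotype measures with 1 sign became 9 without dCLN and 11 without sCLN, but 1 sign is likelier by chance over fewer nodes. The TRBV20 second-form difference stayed between 2.70 and 5.14 points under alternatives chosen after the data were seen.

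Changes near 0 reversed. The TRBV14 genotype change was -0.017 with paired clonotypes, -0.017 with barcodes, -0.035 without extra chains, -0.0068 with at least 2 UMIs, -0.0051 with median-ratio scaling and -0.14 to 0.19 with a library left out. Node changes with a library left out were -0.44 to 0.11 (TRBV14) and -0.15 to 0.042 (TRBV20) for dCLN over sCLN, -0.35 to 0.070 (TRBV14) for dCLN over iLN, and -0.23 to 0.31 (TRBV14) and -0.14 to 0.091 (TRBV17) for sCLN over iLN. Without extra chains, TRBV20 was 0.024 for dCLN over sCLN and TRBV17 0.019 for sCLN over iLN, which was 0.038 with paired clonotypes. With TMM scaling, TRAV12 and TRAV4 in TRBV17 were -0.0057 and -0.15. The TRBV14 difference in TRA partner share was 0.17 points with at least 2 UMIs, 0.22 without extra chains, 0.43 with barcodes and -0.41 to 0.51 with a library left out. With a library left out, TRBV17 added bases differed by -0.036 to 0.023, and TRA partner share by -1.35 to 0.29 points (TRBV17) and -0.89 to 1.63 points (TRBV20). Counts per library limit the precision: 31 TRBV17 chains in WT dCLN was the fewest.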
